A study of Mus musculus with 10 samples.

Results

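ER-Hoxa9-Lys-GFP cells that had been without estradiol (E2) for 40 h and then had E2 back for 80 h were compared with untreated cells, which kept E2 throughout. The 2 groups were defined by the treatment labels, and the comparison was chosen with earlier results of these data known. It used 4 of the 10 libraries of the series, 2 for the 40 h group and 2 for the untreated group. The other 6 libraries were pairs from cells without E2 for 24 h and then with E2 for 96 h, without E2 for 72 h and then with E2 for 48 h, or without E2 for 120 h with none returned. All were total RNA of cultured mouse cells of the C57BL/6 strain, grown in serum with a conditioned medium that supplies stem cell factor, and all carry ER-Hoxa9 and the Lys-GFP marker named in the line. The untreated cells are therefore an immortalised line held by an active Hoxa9 fusion and are not primary progenitors. The labels do not say whether the line is 1 clone or whether the 2 libraries of a group were grown as separate cultures. The p-values therefore reflect how far apart these samples lie, a spread that could be technical.

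Hoxa9 is a homeobox transcription factor of early blood progenitors, and with its partner Meis1 it is known to block myeloid differentiation when overexpressed. Fused to the hormone-binding domain of the estrogen receptor, it works while E2 is present, and on loss of E2 such cells are known to leave the progenitor state and mature as granulocytes and monocytes. Maturing granulocytes make their granule proteins in a set order, from the primary granules of promyelocytes through secondary to tertiary granules. Comparing withdrawn and restored cells with untreated ones asks which genes differed between them once E2 had returned. It cannot show which levels had changed during withdrawal and come back.

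Values are RPKM, read counts scaled to transcript length and to library size, for 1 transcript per gene. The reads behind a library ranged from 173620000 to 204400000, so 1 read on a transcript of 2 kb was worth 0.00245 to 0.00288 RPKM. Fold changes are limma estimates on log2(RPKM + 1), which understate the change of genes with low values. Called genes had an adjusted p under 0.05 (Benjamini-Hochberg, BH) over 13004 tested genes, those that reached 1 RPKM in 2 or more libraries.

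The progenitor identity of the line was visible in its markers. Cd34, a surface antigen of blood progenitors, stood at 869 and 830.0 RPKM in the untreated libraries and 743 and 768 RPKM in the 40 h libraries. Kit, the stem cell factor receptor, stood at 152 and 158 RPKM against 126 and 150.5 RPKM. Mpo, the myeloperoxidase of primary granules, stood at 2042 and 2433 RPKM against 2031 and 1941 RPKM. None of these genes was called, and the 40 h values of each lay below the untreated ones. Some markers of maturity were near the bottom of the scale. Ltf and Ngp, which encode secondary granule proteins, Mmp9, Cx3cr1 and Siglech were all under 1 RPKM in all 4 libraries. Others did rise: the monocyte and macrophage markers Ly6c2 and Adgre1 were called higher at 40 h and are given below. Csf1r, the receptor of macrophage colony-stimulating factor, was between 1.62 and 2.31 RPKM. Lyz2, which encodes lysozyme, is not read as a marker here, since its listed transcript was between 0.22 and 0.336 RPKM in these libraries and still only 2.68 and 4.29 RPKM at 120 h. Hoxa9 itself read 50.2 and 59.95 RPKM in untreated and 66.4 and 75.8 RPKM in 40 h cells and was not called (log2 fold change 0.37, SE 0.16, adjusted p = 0.265). The transcript does not separate the ER-Hoxa9 fusion from the cells' own Hoxa9.

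Once E2 had been back for 80 h, the 40 h cells had some promyelocyte and monocyte genes above the untreated level and some lymphoid, matrix and adhesion, growth factor and progenitor genes below it, as counts that depended on single libraries. No library was taken at the end of the 40 h without E2, so whether a level had changed by then was not measured. Of all genes tested, 557 were called (4.28%), 121 higher (0.93%) and 436 lower (3.35%). The changes were mostly small: the median size was 0.70 on the log2 scale among the higher genes and 0.58 among the lower ones. Genes past 2-fold numbered 37 higher (0.285%) and 39 lower (0.3%). The called higher genes went from 0.211% to 0.425% of all coding RPKM, and the called lower genes from 2.21% to 1.40%. All 557 had both 40 h libraries on the same side of both untreated libraries. Over all genes tested, both 40 h libraries lay above both untreated ones for 29.2% and below them for 33.3%. Leaving out 1 of the 4 libraries cut the calls to between 41 (without untreated replicate 1) and 222 (without 40 h replicate 2). Of the 108 called genes chosen for naming, 21 were called in all 4 such fits, among them Ly6c2, Gda, n-R5-8s1, Mmp8, Mtus1, Igsf6, Tlr4, Adgre1, Ighm, Thy1, Fgf3, Sdc4, Myl4, Crip1, Dntt, Gfra1, Mycn, Ptgds, Asic4 and Serpinf1. Another 51 were called in none of them. Of the 74 list counts (each list in each direction), 36 and 33 moved by over 1.5 times without untreated replicate 1 or 2, and 34 and 27 without 40 h replicate 1 or 2. Beside a list, counts for the 4 libraries left out stand in that order.

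The 120 h libraries take no part in the comparison but enter the shared estimate of error, and they were the most variable. The median SD between the 2 libraries of a group was 0.175 on the log2 scale at 120 h, 0.0426 in untreated cells and 0.0647 at 40 h. Without the 120 h group, 1797 genes were called (13.8%), 611 higher (4.7%) and 1186 lower (9.12%), and they held all 557 in the same direction. List counts from that fit are given beside some of the reported ones. They stand against its shares of all genes, 4.7% higher and 9.12% lower.

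**Figure D1:**
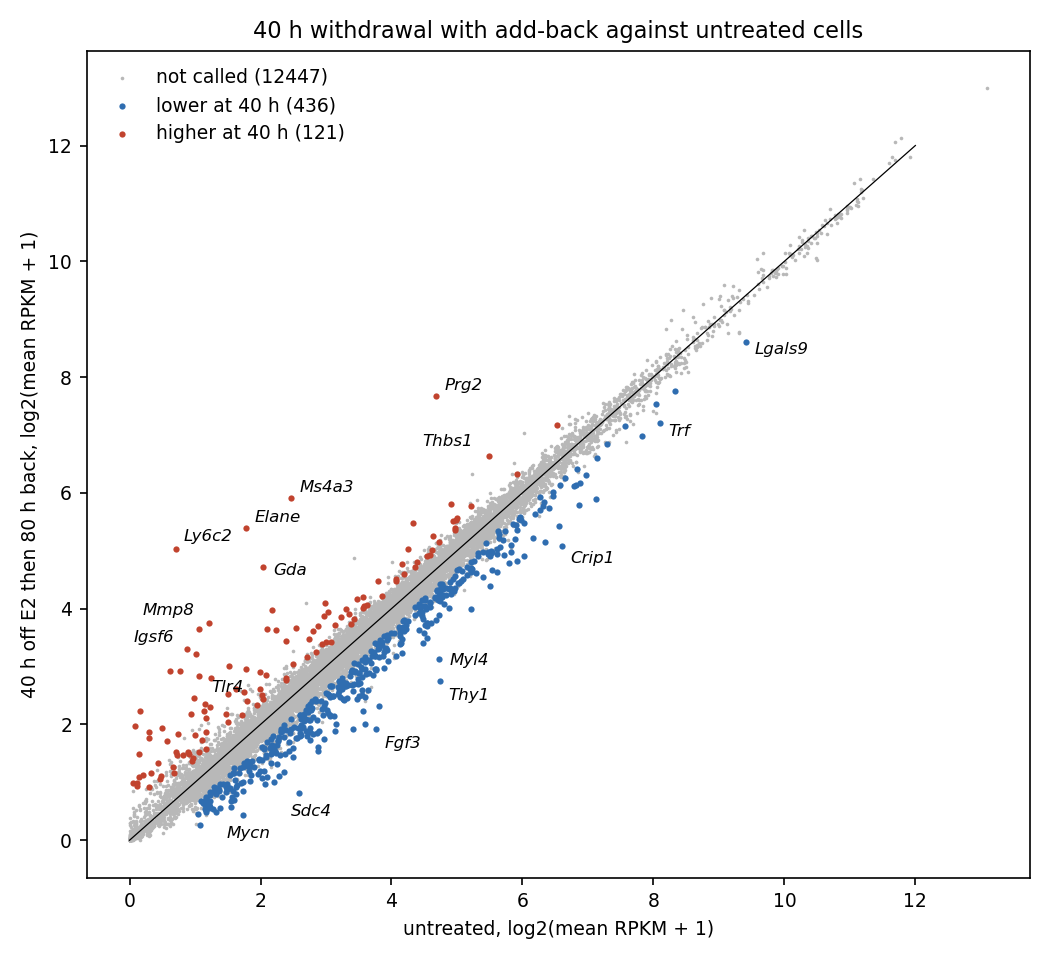
Mean RPKM of each of the 13004 genes in untreated cells (x axis) and in the 40 h group (y axis), both as log2(mean RPKM + 1), with genes called higher in red, called lower in blue and not called in grey. Most genes lie on the line of equal values, the red genes reach farthest from it at low and middle untreated levels, and Prg2, Elane, Ms4a3 and Ly6c2 stand highest above it.

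Ly6c2, a surface antigen of inflammatory monocytes, had the largest rise among the named genes. It read 0.571 and 0.683 RPKM in untreated cells and 37.6 and 25.8 RPKM at 40 h, a log2 fold change of 4.31 (SE 0.21, limma adjusted p = 2.07e-04). Its near copy Ly6c1 read 0.093 and 0.034 RPKM against 3.77 and 2.05 RPKM. The groups did not overlap for either gene. The 2 transcripts share 31.7% (Ly6c1) and 32.6% (Ly6c2) of their 50-base windows, so the Ly6c1 values in particular may hold reads of Ly6c2. Elane, the neutrophil elastase of primary granules, read 1.68 and 3.19 RPKM in untreated cells and 44.6 and 37.5 RPKM at 40 h (log2 fold change 3.65, SE 0.42, adjusted p = 0.00471). Ms4a3, a membrane protein of granulocyte and monocyte progenitors, read 4.55 and 4.49 RPKM against 76.7 and 41.9 RPKM (log2 fold change 3.39, SE 0.38, adjusted p = 0.00418). The Elane call was lost without untreated replicate 1 (adjusted p between 0.0307 and 0.0659 over the 4 fits) and without 40 h replicate 1, and the Ms4a3 call without untreated replicate 1 (adjusted p up to 0.0549).

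Promoter windows of RefSeq genes (GRCm38.p6), from 250 bases before to 50 after the start, were searched on both strands for 6 motifs: C/EBP (TTGCNNAA), PU.1 (GAGGAAG), Runx (TGTGGT), Hox with Pbx (TGATTNAT), Ebf1 (TCCC, 2 free bases and GGGA) and Myc (CACGTG). C/EBP factors and PU.1 are main regulators of granulocyte and monocyte genes, and Ebf1 is one of early B cells. The windows of 3 genes with large rises and 3 with large falls are printed so that their starts can be set side by side, with bases of a match in capitals, in the direction of transcription.
Ly6c2, chr15:75111922-75112221, minus strand: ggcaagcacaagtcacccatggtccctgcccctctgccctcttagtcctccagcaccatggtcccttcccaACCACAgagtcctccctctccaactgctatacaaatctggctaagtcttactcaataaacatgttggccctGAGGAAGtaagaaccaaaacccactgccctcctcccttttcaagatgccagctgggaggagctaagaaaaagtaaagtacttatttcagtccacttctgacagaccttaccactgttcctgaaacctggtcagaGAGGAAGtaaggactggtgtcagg
Elane, chr10:79886062-79886361, plus strand: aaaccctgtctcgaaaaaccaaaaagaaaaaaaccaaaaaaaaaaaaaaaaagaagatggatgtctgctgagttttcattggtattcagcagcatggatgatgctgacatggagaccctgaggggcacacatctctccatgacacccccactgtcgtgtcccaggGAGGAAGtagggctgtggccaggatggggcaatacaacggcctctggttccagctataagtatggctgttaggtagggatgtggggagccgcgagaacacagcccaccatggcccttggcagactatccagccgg
Ms4a3, chr19:11640802-11641101, minus strand: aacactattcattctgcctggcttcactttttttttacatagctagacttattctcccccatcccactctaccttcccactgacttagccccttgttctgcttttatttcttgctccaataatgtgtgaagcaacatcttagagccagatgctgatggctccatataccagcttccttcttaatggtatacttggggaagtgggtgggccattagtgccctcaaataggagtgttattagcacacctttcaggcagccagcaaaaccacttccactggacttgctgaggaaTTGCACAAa
Fgf3, chr7:144838362-144838661, plus strand: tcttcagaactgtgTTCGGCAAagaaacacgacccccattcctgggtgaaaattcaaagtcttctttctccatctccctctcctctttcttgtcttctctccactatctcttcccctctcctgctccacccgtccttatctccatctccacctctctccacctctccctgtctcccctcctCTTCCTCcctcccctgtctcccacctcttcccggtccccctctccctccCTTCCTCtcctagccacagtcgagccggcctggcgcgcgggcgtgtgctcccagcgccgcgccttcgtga
Sdc4, chr2:164443139-164443438, minus strand: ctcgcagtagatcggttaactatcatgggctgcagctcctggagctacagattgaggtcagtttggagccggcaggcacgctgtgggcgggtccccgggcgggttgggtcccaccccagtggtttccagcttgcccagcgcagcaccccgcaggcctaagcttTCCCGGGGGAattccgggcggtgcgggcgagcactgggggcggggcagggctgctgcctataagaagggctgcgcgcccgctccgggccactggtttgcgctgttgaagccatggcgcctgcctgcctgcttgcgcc
H2-Ob, chr17:34238655-34238954, plus strand: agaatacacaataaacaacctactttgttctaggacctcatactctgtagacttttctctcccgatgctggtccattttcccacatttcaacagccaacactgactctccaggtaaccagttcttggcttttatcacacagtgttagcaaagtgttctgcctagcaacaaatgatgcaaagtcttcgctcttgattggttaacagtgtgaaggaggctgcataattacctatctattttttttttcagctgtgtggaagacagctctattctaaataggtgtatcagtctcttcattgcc
In these windows, Ly6c2 held the PU.1 letters with their first base at -108 and at 26 from the start and the Runx letters at -179. Elane held the PU.1 letters at -85 and Ms4a3 the C/EBP letters at 41. Fgf3 held the C/EBP letters at -236 and the PU.1 letters at -69 and -20, Sdc4 held the Ebf1 letters at -87, and H2-Ob held none of the 6. No 2 matches overlapped. Such a match is a description of letters and no binding site was measured.

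Among the 8358 tested genes with a RefSeq window whose start was within 500 bases of the listed transcript, 8.34% held the C/EBP letters, against 10.8% of all 32851 windows. Of the called higher genes 76 had a window and 15 of these (19.7%) held the C/EBP letters, and of the called lower genes 24 of 313 (7.67%) did. PU.1 letters were in 13 of 76 higher (17.1%), 47 of 313 lower (15%), 13.8% of tested and 13.6% of all windows. Runx letters were in 11 of 76 (14.5%), 57 of 313 (18.2%), 13.1% of tested and 16.8% of all windows. Myc letters were in 11 of 76 (14.5%), 21 of 313 (6.71%), 10.5% of tested and 7.15% of all windows. The Hox with Pbx letters were in 1 higher and 8 lower windows (1.32% and 2.56%, against 1.15% of tested and 3.22% of all), and the Ebf1 letters in 1 and 7 (1.32% and 2.24%, against 0.885% and 0.904%). These shares were not tested.

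Primary granule and promyelocyte genes were the list with the most rises by share. Of 20 tested members, 6 (30%, against 0.93% of all genes) were called higher and none lower (7 and 2 without the 120 h group). The median log2 fold change was 0.20 against -0.006 over all genes. With 1 of the 4 libraries left out, 1, 5, 2 and 6 were called higher. Besides Elane and Ms4a3 the 6 were Igsf6, Fcnb, Hp and Clec12a. Mean RPKM at 72 h and 120 h was 59.4 and 207 for Igsf6 and 57.8 and 436 for Fcnb. For Hp it was 78.5 and 505, and for Clec12a 89.7 and 157. Elane (278 and 63.1) and Ms4a3 (525 and 201) had lower means at 120 h than at 72 h. The called members thus did not share 1 pattern at 120 h. Igsf6, an immunoglobulin superfamily receptor of myeloid cells, read 1.10 and 0.944 RPKM in untreated cells and 9.70 and 6.86 RPKM at 40 h (log2 fold change 2.18, SE 0.15, adjusted p = 0.00103). Fcnb, which encodes the lectin ficolin B, read 0.778 and 0.625 RPKM against 7.10 and 6.02 RPKM (log2 fold change 2.15, SE 0.24). Hp, the haemoglobin-binding haptoglobin, read 2.94 and 4.47 RPKM against 13.2 and 9.56 RPKM (log2 fold change 1.40, SE 0.18). All of these stood apart from the untreated libraries, yet the Fcnb and Hp calls were lost without untreated replicate 1 or 40 h replicate 1. The Clec12a call was kept only without 40 h replicate 2 (limma adjusted p up to 0.18). The 2 most abundant members were not called. Ctsg, cathepsin G, read 1617 and 1692 RPKM against 2009 and 1809 RPKM and was not called (log2 fold change 0.20, SE 0.35), and Mpo had a log2 fold change of -0.17 (SE 0.38).

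Of 20 secondary granule genes, 3 (15%, against 0.93% of all genes) were called higher and none lower, with a median of 0.10. In the leave-one-out fits 1, 2, 2 and 2 were called higher. Mmp8, the neutrophil collagenase, read 1.18 and 1.48 RPKM in untreated cells and 13.8 and 11.1 RPKM at 40 h (log2 fold change 2.53, SE 0.24, adjusted p = 0.00251). Mgst1, a microsomal glutathione transferase, read 0.071 and 0.156 RPKM against 4.82 and 2.59 RPKM (log2 fold change 2.04, SE 0.23). Slpi, a secreted inhibitor of elastase, read 16.2 and 22.2 RPKM against 47.1 and 39.7 RPKM (log2 fold change 1.15, SE 0.20). Its call was lost in all 4 leave-one-out fits (limma adjusted p between 0.058 and 0.182), and that of Mgst1 without untreated replicate 1. The defining members Ltf (0.253 and 0.304 RPKM at 40 h) and Ngp (0.487 and 0.497 RPKM) were not among the called genes, and their untreated values were 0.143 to 0.511 RPKM. The median of the 28 tertiary granule and mature neutrophil genes was 0.04. Of these, 2 (7.14%, against 0.93% of all genes) were called higher and none lower (1, 1, 1 and 2 higher with a library left out). Among them was Trem3, an activating receptor, at 4.42 and 4.06 RPKM against 10.1 and 9.64 RPKM (log2 fold change 1.05, SE 0.13), a call kept only without 40 h replicate 2. S100a8, a calprotectin subunit, was not called and read 0.749 and 0.318 RPKM against 1.47 and 1.49 RPKM.

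Monocyte and macrophage genes had 7 of 34 members called higher and 2 lower, with a median of 0.20 (12 and 3 without the 120 h group). Of the 34, 20.6% were called higher and 5.88% lower, against 0.93% and 3.35% of all genes. The lower share is near that of all genes. Leaving out 1 library gave 3, 4, 4 and 4 higher and none lower. Gda, a guanine deaminase, read 2.51 and 3.66 RPKM in untreated cells and 28.3 and 22.5 RPKM at 40 h (log2 fold change 2.70, SE 0.15, adjusted p = 3.57e-04). Adgre1, the macrophage antigen F4/80, read 1.16 and 1.59 RPKM against 6.26 and 5.74 RPKM (log2 fold change 1.56, SE 0.12). Cd14, the co-receptor for bacterial lipopolysaccharide, read 0.212 and 0.094 RPKM against 1.30 and 1.04 RPKM (log2 fold change 0.91, SE 0.14), and its call was lost in all 4 leave-one-out fits (limma adjusted p between 0.0543 and 0.161). Tlr4, the receptor that CD14 serves, rose as well. It read 1.09 RPKM in both untreated libraries and 6.58 and 5.79 RPKM at 40 h (log2 fold change 1.78, SE 0.09, adjusted p = 2.07e-04). The 2 monocyte genes that fell were Ccr2, the receptor that draws monocytes from the marrow, from 113 and 111 RPKM to 64.1 and 74.8 RPKM (log2 fold change -0.68, SE 0.15), and Irf8, a transcription factor of monocytes and dendritic cells, from 13.6 and 12.6 RPKM to 9.52 and 8.51 RPKM (log2 fold change -0.49, SE 0.11). Neither call held when any of the 4 libraries was left out. In these bulk libraries, fewer cells of a type and less RNA per cell cannot be told apart, nor can more cells and more RNA per cell.

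**Figure D2:**
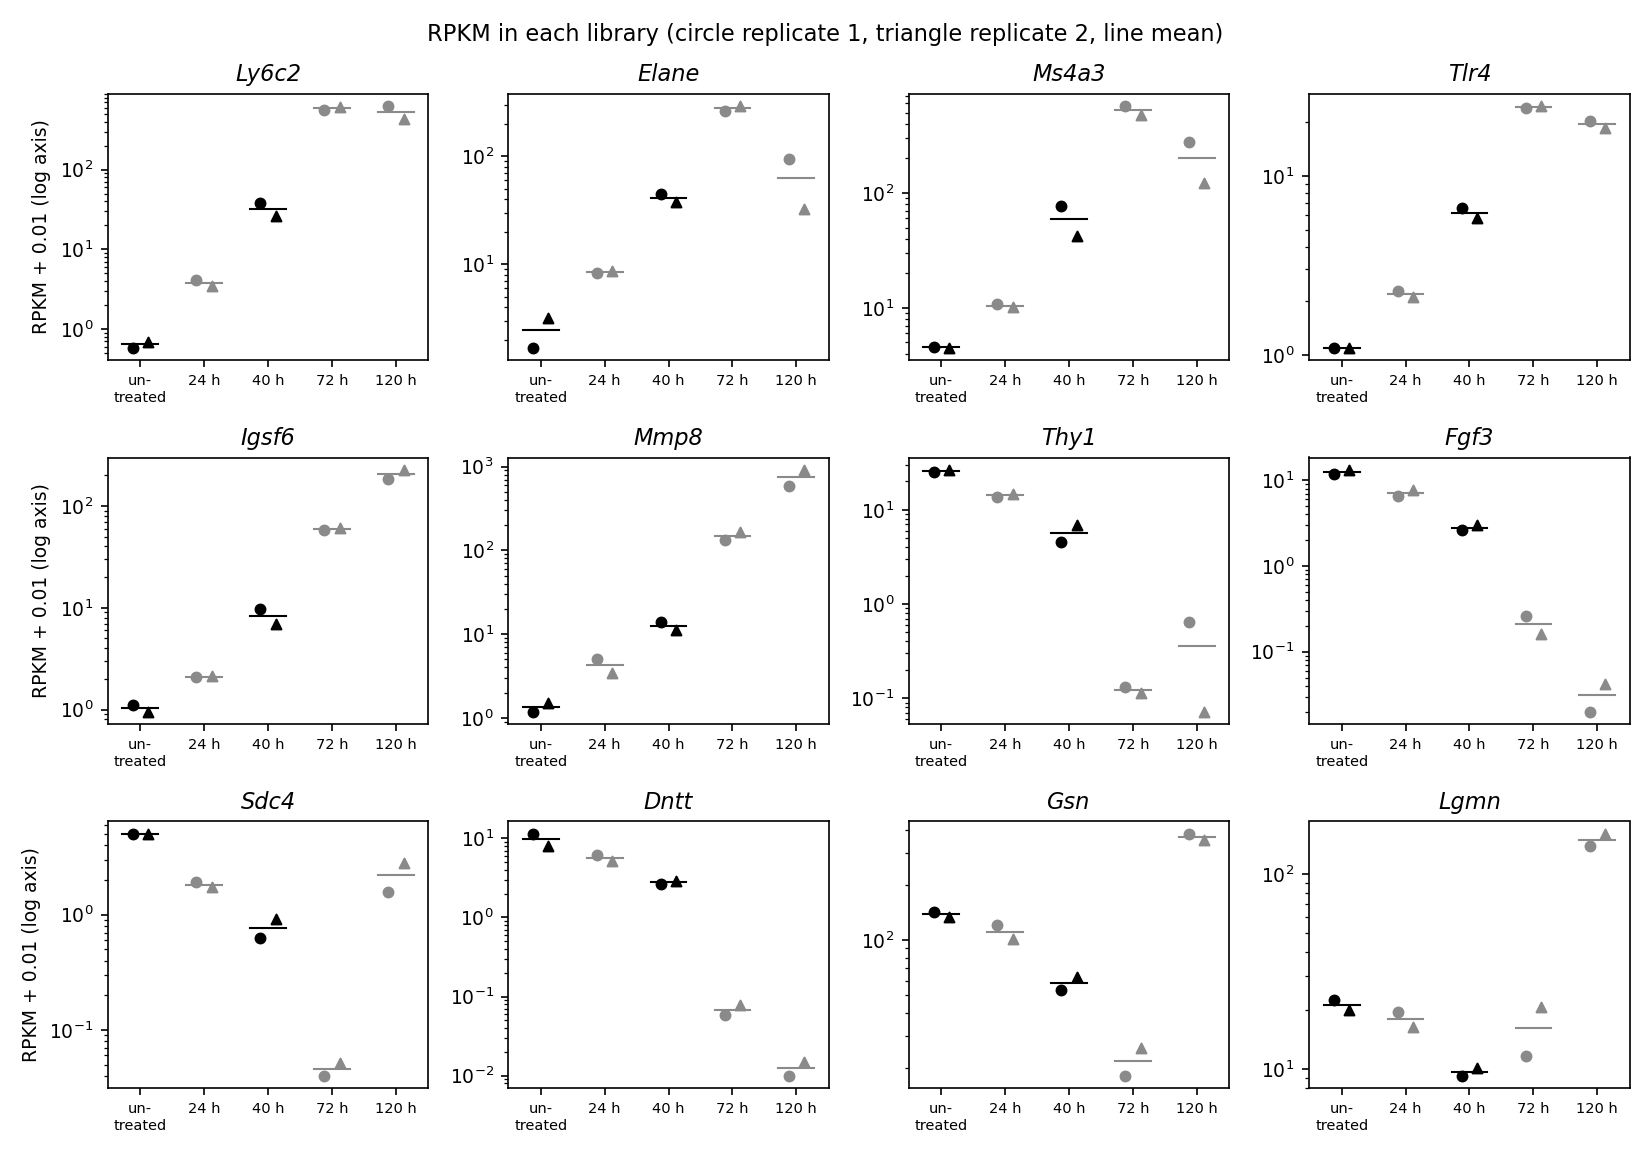
RPKM plus 0.01 on a log axis for 12 genes in each of the 10 libraries, by group, with circles for replicate 1, triangles for replicate 2, a line at the mean, and the untreated and 40 h groups in black. The 40 h libraries of Ly6c2, Elane, Ms4a3, Tlr4, Igsf6 and Mmp8 lie above the untreated ones, and those of the other 6 genes lie below, while Gsn and Lgmn are highest at 120 h.

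Prg2, the major basic protein of eosinophils, reached the highest level at 40 h among the genes called higher. It read 12.9 and 36.3 RPKM in untreated cells and 234 and 173 RPKM at 40 h (log2 fold change 3.15, SE 0.45, adjusted p = 0.0102). Its call was lost without untreated replicate 1 or 40 h replicate 1 (adjusted p up to 0.129). Prg2 was the only called gene of 14 in the eosinophil, basophil and mast cell list (7.14%, against 0.93% of all genes called higher). The median log2 fold change of the list was 0.07. The list summed to 234 to 272 RPKM in untreated and 380 to 451 RPKM in 40 h cells. Prg2 itself went from a mean of 24.6 to one of 203 RPKM, so the rise of the sum was no larger than that of Prg2. Epx, the eosinophil peroxidase, was at 0.018 and 0.015 RPKM against 0.26 and 0.219 RPKM, and the mast cell genes Cpa3 and Mcpt8 were not called (log2 fold changes -0.19 and -0.46).

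Other large rises came from genes outside the lineage lists. Mtus1, which encodes a microtubule-associated protein, read 0.725 and 0.946 RPKM in untreated cells and 10.4 and 7.46 RPKM at 40 h (log2 fold change 2.42, SE 0.14), and 2 genes that overlap it on the other strand were also called higher. Far2, a fatty acyl-CoA reductase, read 0.325 and 0.75 RPKM against 7.71 and 5.42 RPKM (log2 fold change 2.30, SE 0.28). Thbs1, the matrix protein thrombospondin 1, read 33.6 and 53.9 RPKM against 88.4 and 109 RPKM (log2 fold change 1.18, SE 0.24). The Thbs1 call was lost in all 4 leave-one-out fits, and that of Far2 without untreated replicate 1 or 40 h replicate 1. None of these 3 has a place in the granule lists. Of 38 myeloid transcription factors 3 were called higher and 2 lower, with a median of -0.13, and with a library left out 0, 1, 0 and 2 were higher and 0, 0, 0 and 1 lower. Of the 38, 7.89% were called higher and 5.26% lower, against 0.93% and 3.35% of all genes. The lower share is near that of all genes. Tfec, a relative of the melanocyte and osteoclast factor Mitf, read 3.44 and 3.64 RPKM against 17.2 and 12.2 RPKM (log2 fold change 1.77, SE 0.20). Cebpe, the C/EBP factor of secondary granule genes, read 6.80 and 7.60 RPKM against 17.2 and 11.6 RPKM (log2 fold change 0.88, SE 0.19, adjusted p = 0.0444). Id1, an inhibitor of basic helix-loop-helix factors, was the third (log2 fold change 0.61). Irf8 and Mxd4, a Max-binding repressor (log2 fold change -0.57), were the 2 that fell. Gfi1, a transcriptional repressor active in the granulocyte line, was not called (log2 fold change 0.21). The Cebpe and Mxd4 calls were kept only without 40 h replicate 2, those of Id1 and Irf8 in none of the 4 fits, and that of Tfec was lost without untreated replicate 1 or 40 h replicate 1.

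The transcript n-R5-8s1, annotated as ribosomal RNA, stood out for its level at 40 h. It read 8.66 and 14.3 RPKM there, 1.16 and 1.03 RPKM in untreated cells, and 1.09 to 1.84 RPKM in the other 6 libraries. Only it and the small nuclear RNA Gm26316 were called above untreated, 24 h and 72 h cells at once. The part of ribosomal RNA content in the other results was not tested.

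Lymphoid genes fell more often than any other list by share. Of 19 tested members 8 were called lower and 2 higher (9 and 2 without the 120 h group). The 8 and 2 were 42.1% and 10.5%, against 3.35% and 0.93% of all genes. The median was -0.43 against -0.006 over all genes. With 1 of the 4 libraries left out, 2, 4, 3 and 5 were called lower and 2 higher each time. The summed level of the list was 371 to 400.2 RPKM in untreated and 291.0 RPKM in both 40 h libraries. Thy1, a surface antigen of T cells and early progenitors, fell from 24.99 and 26.7 RPKM to 4.55 and 6.87 RPKM (log2 fold change -2.02, SE 0.21, adjusted p = 0.00346). Dntt, the template-independent polymerase of antigen receptor joining, fell from 11.5 and 7.91 RPKM to 2.68 and 2.86 RPKM (log2 fold change -1.49, SE 0.15). Rag1, the recombinase that cuts those genes, fell from 5.74 and 3.52 RPKM to 1.51 and 1.93 RPKM (log2 fold change -1.03, SE 0.17), a call kept only without untreated replicate 2. Its partner Rag2, which shares a locus and an overlapping transcript with it, fell less, from 30.5 and 28.7 RPKM to 20.5 and 23.1 RPKM (log2 fold change -0.43, SE 0.08). Cd79a and Cd79b, the signalling chains of the B cell receptor, had log2 fold changes of -0.91 and -0.43, and Tcf7, a T lineage factor, one of -0.62. The B lineage genes Igll1 (163 and 141 RPKM against 124 and 110.3 RPKM) and Ebf1 (23.7 and 24.0 RPKM against 14.3 and 20.0 RPKM) were not called, although their 40 h libraries lay below the untreated ones. Ighm, the immunoglobulin mu heavy chain, went the other way, from 3.47 and 3.06 RPKM to 12.3 and 10.8 RPKM (log2 fold change 1.56, SE 0.13).

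Matrix, adhesion and cell surface proteoglycan genes had 8 of 24 members called lower and 1, Thbs1, called higher, with a median of -0.27. Of the 24, 33.3% were called lower and 4.17% higher, against 3.35% and 0.93% of all genes. With a library left out, 2, 3, 3 and 5 were called lower and none higher. Sdc4, the heparan sulfate proteoglycan syndecan 4, fell from 5.05 and 5.02 RPKM to 0.619 and 0.902 RPKM (log2 fold change -1.78, SE 0.17, adjusted p = 0.00251). Serpinf1, a secreted serpin known as pigment epithelium-derived factor, fell from 123 and 109 RPKM to 51.0 and 57.4 RPKM (log2 fold change -1.08, SE 0.09). Aebp1, a collagen-binding secreted protein, fell from 83.8 and 76.6 RPKM to 29.5 and 39.3 RPKM (log2 fold change -1.21, SE 0.12). The laminin chains Lamb2 and Lama5, the tetraspanin Cd9 and the second syndecan of the list, Sdc1, also fell (log2 fold changes -0.90, -0.66, -0.85 and -0.51). The eighth was Col4a2, a basement membrane collagen chain (log2 fold change -0.44). The Cd9 and Sdc1 calls were lost in all 4 leave-one-out fits, that of Lamb2 was kept only without 40 h replicate 2, and that of Aebp1 was lost without untreated replicate 1.

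Growth factor and secreted ligand genes had 3 of 16 members called lower and none higher, with a median of -0.19. The 3 of 16 made 18.75%, against 3.35% of all genes. With a library left out, 1, 1, 1 and 3 were called lower. Fgf3, a fibroblast growth factor, fell from 11.96 and 13.3 RPKM to 2.58 and 2.98 RPKM (log2 fold change -1.85, SE 0.11, adjusted p = 3.57e-04), the lowest p among the genes that fell and were named. Gas6, the ligand of the Tyro3, Axl and Mer receptors, fell from 66.3 and 62.4 RPKM to 25.6 and 32.5 RPKM (log2 fold change -1.13, SE 0.14). Jag2, a ligand of Notch, fell from 3.88 and 3.85 RPKM to 1.05 and 1.25 RPKM (log2 fold change -1.18, SE 0.15). The Gas6 and Jag2 calls were kept only without 40 h replicate 2. The abundant ligand Tgfb1 was not called (112 and 106 RPKM against 89.6 and 85.8 RPKM). Of 36 cytokine receptors, 2 were called lower and none higher (8 and 3 without the 120 h group), with a median of -0.09. That share, 5.56%, is near the 3.35% of all genes called lower, and the count was 0, 0, 0 and 1 with a library left out. Among the genes called was Tgfbr2, a receptor of transforming growth factor beta (log2 fold change -0.55), whose call held in none of the 4 fits. Flt3, a receptor of early progenitors, read 257 and 250.1 RPKM against 149 and 191 RPKM and missed the threshold (log2 fold change -0.58, SE 0.14, adjusted p = 0.0626). Without the 120 h group the adjusted p of Flt3 was 0.013.

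Progenitor and Hoxa9-Meis1 genes had 6 of 32 members called lower and 1 higher (11 and 2 without the 120 h group). The 6 and 1 were 18.75% and 3.1%, against 3.35% and 0.93% of all genes. The median was -0.23, and 28 of the 32 had a negative log2 fold change. Leaving out 1 library gave 1, 3, 1 and 5 lower and none higher. Mycn, a MYC family factor of early progenitors, fell from 2.15 and 2.49 RPKM to 0.296 and 0.394 RPKM (log2 fold change -1.30, SE 0.11, adjusted p = 0.00181), while Myc was not called (log2 fold change 0.03, SE 0.23). Egfl7, a secreted protein of vessels and stem cells, fell from 48.0 and 47.6 RPKM to 22.7 and 25.1 RPKM (log2 fold change -0.97, SE 0.17). Gfi1b, a transcriptional repressor active in erythroid and megakaryocyte cells, fell from 2.25 and 1.82 RPKM to 0.61 and 0.622 RPKM (log2 fold change -0.91, SE 0.11). Smaller falls were called for Spns2, a sphingosine phosphate transporter, Hlf, a transcription factor of stem cells, and Erg, an ETS factor of stem cells (log2 fold changes -0.66, -0.56 and -0.51). The Egfl7 and Hlf calls were lost in all 4 leave-one-out fits, and those of Gfi1b and Spns2 without untreated replicate 1 or 40 h replicate 1. Meis1 read 10.6 and 11.2 RPKM against 7.34 and 9.18 RPKM and was not called (log2 fold change -0.37, SE 0.13, adjusted p = 0.17, or 0.046 without the 120 h group). Myb, a factor that progenitors need, overlapped between the groups at 235 and 244 RPKM against 214 and 249 RPKM. Among the erythroid and megakaryocyte genes, 2 of 10 were called lower (20%, against 3.35% of all genes) and none higher. They included the platelet receptor chain Gp9 (log2 fold change -0.75). With a library left out 0, 0, 0 and 1 were called lower, Gp9 in no fit.

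**Figure D3:**
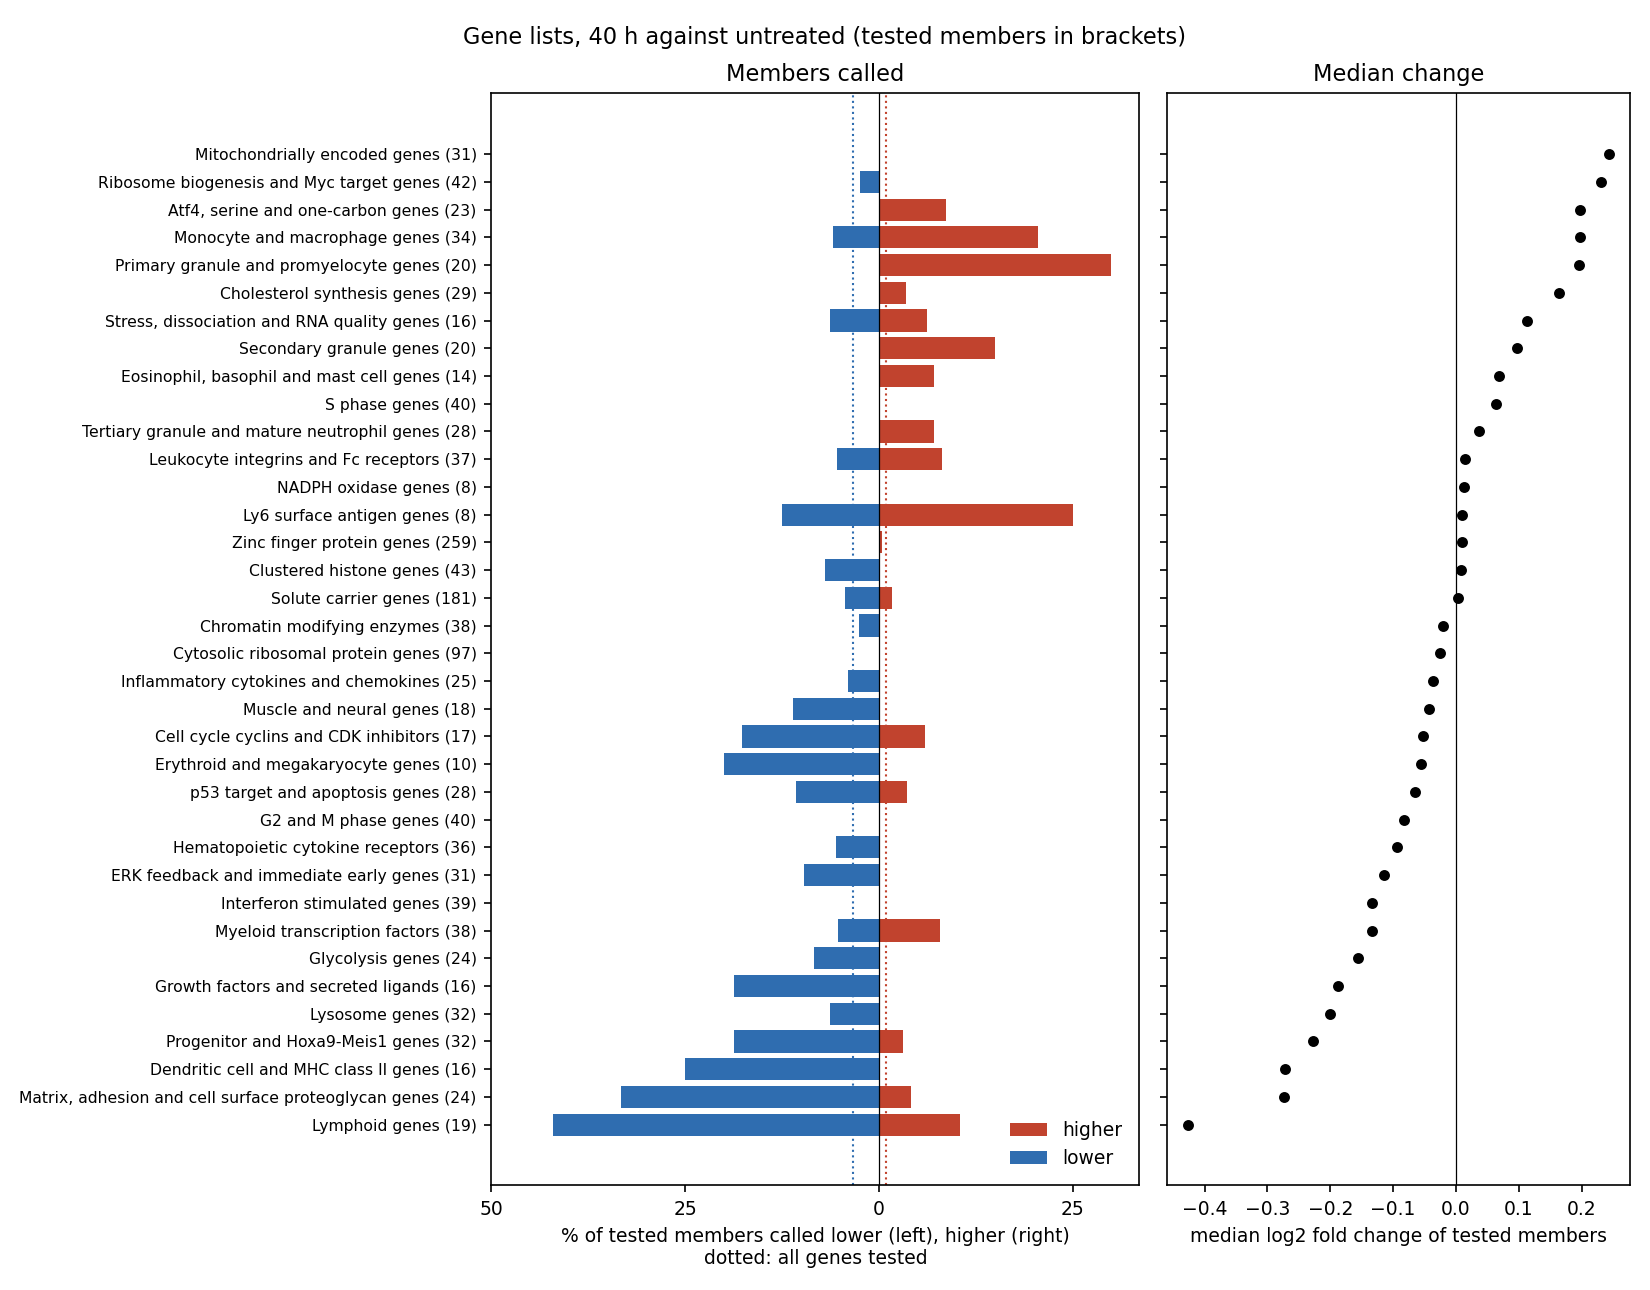
For each gene list with at least 5 tested members, the percent of tested members called higher (red, right) or lower (blue, left) at 40 h against untreated, and the median log2 fold change of its tested members, sorted by that median. Dotted lines give the share over all genes tested (0.93% higher, 3.35% lower), and the lymphoid and the matrix and adhesion lists stand at the low end.

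The dendritic cell and MHC class II list had 4 of 16 members called lower (25%, against 3.35% of all genes) and none higher. Of the 16 log2 fold changes 15 were negative (median -0.27). With a library left out, 0, 1, 1 and 1 were called lower. Those called were H2-Ob, H2-Oa, H2-DMa and Irf8, and not the class II chain gene H2-Aa. H2-Ob and H2-Oa, which form the H2-O inhibitor of peptide loading, fell from 10.9 and 11.1 RPKM to 2.17 and 3.85 RPKM and from 5.01 and 4.73 RPKM to 2.32 and 2.50 RPKM (log2 fold changes -1.62, SE 0.18, and -0.78, SE 0.15). H2-DMa, of the H2-DM complex that loads peptides, fell from 31.2 and 29.7 RPKM to 19.8 and 19.0 RPKM (log2 fold change -0.62, SE 0.09). The H2-Oa, H2-DMa and Irf8 calls were lost in all 4 leave-one-out fits, and that of H2-Ob without untreated replicate 1. H2-Aa was at 0.651 to 1.14 RPKM in all 4 libraries, and Cd74, the invariant chain, at 1.17 to 1.69 RPKM.

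Several of the largest falls lay outside these groups. Myl4, a myosin light chain of the atrium and of fetal muscle, fell from 28.3 and 22.9 RPKM to 7.41 and 8.17 RPKM (log2 fold change -1.59, SE 0.12). Gfra1, the receptor of glial cell line-derived neurotrophic factor, fell from 10.8 RPKM in both untreated libraries to 3.10 and 4.34 RPKM (log2 fold change -1.33, SE 0.12), together with an antisense gene, Gm16277. Asic4, of the acid-sensing ion channel family, fell from 7.01 and 6.68 RPKM to 2.07 and 2.65 RPKM (log2 fold change -1.23, SE 0.10). Gsn, the actin-severing gelsolin, was among the abundant genes that fell, from 143 and 133 RPKM to 53.4 and 63.1 RPKM (log2 fold change -1.24, SE 0.17). Trf, the iron carrier transferrin, fell from 279 and 269.6 RPKM to 139 and 153 RPKM (log2 fold change -0.91, SE 0.09), and Lgals9, galectin 9, the most abundant gene that fell, from 701 and 658 RPKM to 386 and 394 RPKM (log2 fold change -0.80, SE 0.11). The Trf call was lost without untreated replicate 1. The Gsn call was kept only without 40 h replicate 2, and the Lgals9 call in no fit that left out 1 of the 4 libraries. Of 557 called genes 50 overlapped another called gene by their spans, in 28 pairs of which 27 were called the same way. Reads in bases that such a pair shares cannot be told apart without strand.

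Proliferation and housekeeping genes gave few calls. No S phase gene (0 of 40), no G2 and M phase gene (0 of 40) and no cytosolic ribosomal protein gene (0 of 97) was called by limma. At an unadjusted p under 0.05 there were 0, 2 and 2 of them, and limma voom on the recovered reads called 0, 0 and 0. Pcna, the sliding clamp of replication, read 220.4 and 216 RPKM against 249 and 241 RPKM, and Top2a, a topoisomerase of dividing cells, 142 and 138 RPKM against 132 and 146 RPKM. Among 17 cyclins and cyclin-dependent kinase inhibitors, Cdkn1a and Cdkn2d, which encode such inhibitors, and the cyclin gene Ccnd3 fell (log2 fold changes -0.66, -0.51 and -0.55). The antiproliferative gene Btg1 rose from 5.94 and 6.01 RPKM to 11.5 and 10.98 RPKM (log2 fold change 0.81, SE 0.11). Of the 17, 17.6% were called lower and 5.88% higher, against 3.35% and 0.93% of all genes. With a library left out, 0, 0, 0 and 1 of these 17 were called lower and 0, 0, 0 and 1 higher. Of 42 ribosome biogenesis and Myc target genes 41 had a positive log2 fold change, with a median of 0.23, yet the only one called was Mycn, which fell. Without the 120 h group, 16 of them were called higher, among them Odc1, the first enzyme of polyamine synthesis, Rrp12 and Srm (log2 fold changes 0.61, 0.52 and 0.47). Cholesterol synthesis genes had 1 of 29 called higher (3.45%, against 0.93% of all genes), Sc5d, and 9 without the 120 h group (median 0.16). Atf4, serine and one-carbon genes had 2 of 23 called higher (8.70%, against 0.93% of all genes), and 8 without the 120 h group. The 2 were Slc7a11, the cystine carrier, and Atf5 (log2 fold changes 0.83 and 0.43). None of the 39 tested members of the interferon stimulated gene list was called, with a median of -0.13 and 33 negative values. At an unadjusted limma p under 0.05 there were 6 of them, and limma voom called 0. Without the 120 h group 4 of the 39 were called lower, in a fit that called 9.12% of all genes lower. Tap1 and Psmb9, given below, lie outside this list. Among the ERK feedback and immediate early genes 3 of 31 were called lower (9.68%, against 3.35% of all genes). These were the phosphatases Dusp2 and Dusp4 and the ETS factor Etv4 (log2 fold changes -0.55, -0.54 and -0.48). None of these 3, Sc5d or Atf5 was called in any leave-one-out fit.

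The 40 h group was then set against its neighbours in withdrawal time. Against 24 h of withdrawal and 96 h of E2, 37 genes were called (0.285%), 22 higher (0.169%) and 15 lower (0.115%) at 40 h. All 37 were also called the same way against untreated cells, but the comparisons share the 40 h libraries. The higher genes included Ly6c2, Gda, Igsf6, Tlr4, Adgre1, Dgat2, an enzyme of triglyceride synthesis, Olr1, a receptor of oxidised lipoprotein, and C3, the complement component. The lower genes included Fgf3, Myl4, Crip1, Gfra1, Asic4, Serpinf1 and Trf. Ly6c2 read 4.05 and 3.45 RPKM at 24 h, between the untreated and 40 h levels, and Fgf3 6.48 and 7.74 RPKM. Leaving out either 24 h library left 0 genes called, with 518 and 956 at an unadjusted p under 0.05, and leaving out 40 h replicate 1 or 2 left 4 and 19.

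Against 40 h, 72 h of withdrawal and 48 h of E2 gave 1810 genes higher (13.9%) and 1794 lower (13.8%). Of the 121 genes higher at 40 h, 104 were called higher again at 72 h and 3 were called lower than at 40 h: Slc7a11, Gm26316 and n-R5-8s1. Of the 436 lower genes 351 were called lower again and 7 were called back up: Ccl3, Irf8, Myof, Pcyt1a, Ptms, Retreg1 and Tnfsfm13. Slc7a11 read 6.12 and 6.50 RPKM in untreated cells, 10.8 and 13.3 RPKM at 40 h and 8.23 and 7.04 RPKM at 72 h. Ccl3, an inflammatory chemokine, read 9.64 and 10.1 RPKM in untreated cells, 6.25 and 6.73 RPKM at 40 h and 36.6 and 47.7 RPKM at 72 h.

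The direction of the called genes was also read in comparisons that share no library with 40 h against untreated, although the estimate of error is shared. In 72 h against 24 h, 20.7% of all genes were called higher and 19.4% lower, and 52.55% had a positive sign. Of the 121 genes higher at 40 h, 113 were called higher there and none lower (median log2 fold change 1.86). Of the 436 lower genes, 407 were called lower and 4 higher (median -1.10). Over all 13004 genes the log2 fold changes of the 2 comparisons had Pearson r = 0.67 and Spearman rho = 0.60, a description across genes, which are not independent and share library depth. In 120 h against 24 h, 28.6% of all genes were called higher and 52.2% lower. Of the higher genes 93 were called higher and 21 lower there, and of the lower genes 312 were called lower and 89 higher. Over all genes r was 0.14 and rho -0.005.

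**Figure D4:**
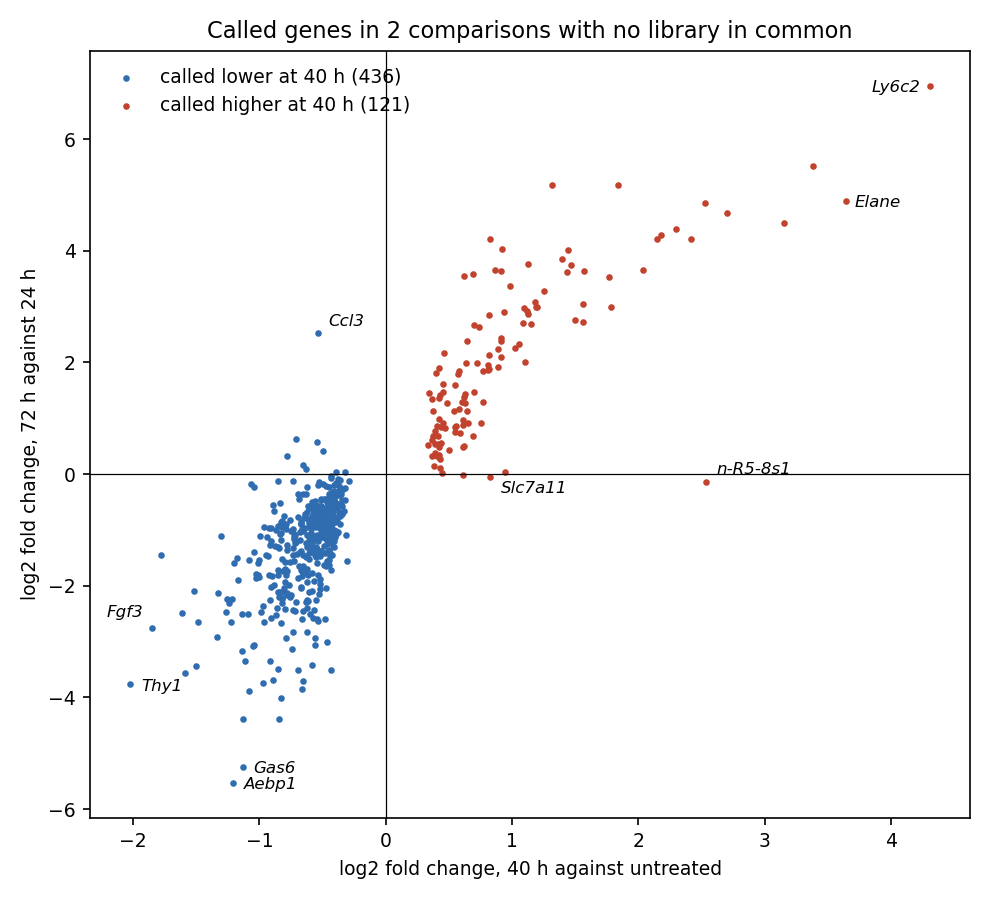
Log2 fold change of the 557 called genes at 40 h against untreated (x axis) and at 72 h against 24 h (y axis), comparisons with no library in common, with genes called higher at 40 h in red and lower in blue. Nearly all genes lie in the quadrants of equal sign, and n-R5-8s1, Slc7a11 and Ccl3 are among the exceptions.

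Among the 89 genes that were lower at 40 h and higher at 120 h against 24 h, those with the largest products of the 2 changes were Lgmn, Cd52, Retreg1, Mocos and Ccl3. The 40 h calls of Lgmn, Cd52, Ccl3, Snord16a, Ptpru, Trmt6, Magi1 and Trmt11 were lost in all 4 leave-one-out fits. Lgmn, the lysosomal protease legumain, read 22.5 and 20.2 RPKM in untreated cells, 9.22 and 10.1 RPKM at 40 h and 139 and 162 RPKM at 120 h. Cd52, a small antigen of mature leukocytes, read 37.1 and 45.1 RPKM, then 20.3 and 24.3 RPKM, and 588 and 688 RPKM at 120 h. Both fell at 40 h against untreated and were called higher at 120 h than at 24 h. Among the 21 that turned the other way these were Snord16a, Ptpru, Trmt6, Magi1 and Trmt11. Trmt6 and Trmt11, which encode subunits of transfer RNA methyltransferases, read 15.8 and 15.9 RPKM against 21.5 and 22.1 RPKM and 6.21 and 6.19 RPKM against 8.36 and 8.68 RPKM, and stood at 8.35 and 7.01 RPKM and 3.13 and 2.75 RPKM at 120 h. Ptpru, a receptor phosphatase, read 0.579 and 0.71 RPKM in untreated, 1.64 and 1.90 RPKM in 40 h and 0.311 and 0.142 RPKM in 120 h cells.

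The 2 libraries of the 40 h group were not equally far from the untreated ones. Replicate 1 was the farther for 89 of the 121 higher genes and for 359 of the 436 lower genes (73.5% and 82.3%), while over all genes it was above replicate 2 for 44.9% and below it for 54.8%. The median log2 difference from untreated was 0.75 in replicate 1 and 0.70 in replicate 2 for the higher genes, and -0.63 and -0.52 for the lower ones. Ms4a3 is an example, at 76.7 RPKM in replicate 1 and 41.9 RPKM in replicate 2, and the 2 values of Fgf3 (2.58 and 2.98 RPKM) show how small the gap was for others.

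**Figure D5:**
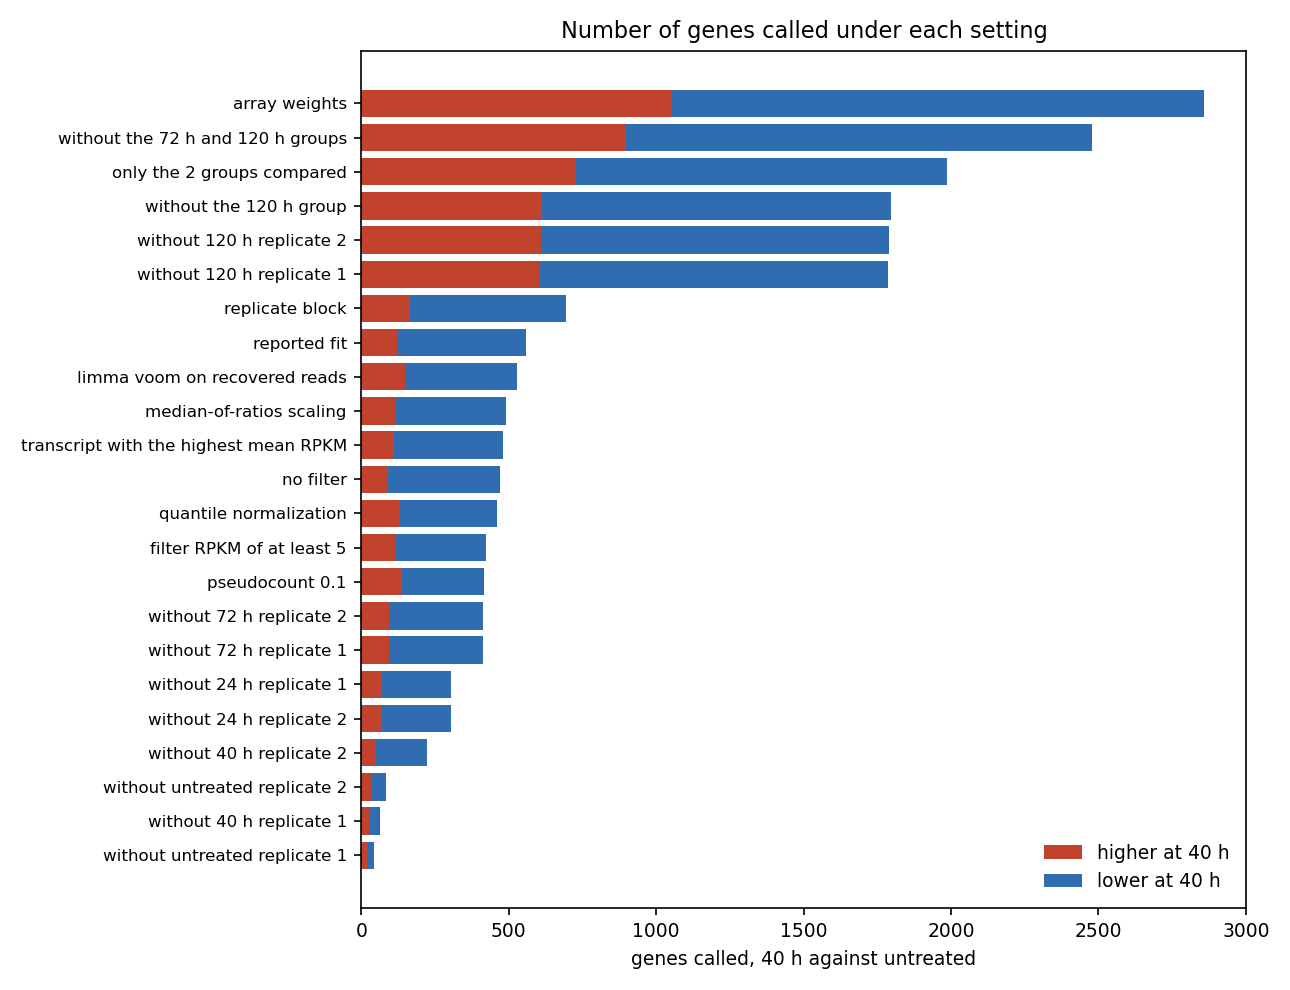
Number of genes called at 40 h against untreated under each setting, higher in red and lower in blue, stacked, with the reported fit at 121 and 436. The counts run from 41 without untreated replicate 1 to 2859 with array weights, and the settings that leave out or down-weight the 120 h libraries lie at the top.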

How the data were processed

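RNA of 10 libraries was analysed, 2 in each of 5 groups, and the 4 libraries of the 40 h and untreated groups make the comparison reported. The authors deposited RPKM per Ensembl transcript, 1 table per library with 79535 transcripts. The submitters' processing notes name STAR and GRCm38. The STAR version, counting program, annotation release and strand use are not given in the sources here. RPKM multiplied by transcript length gave whole reads within 0.02 reads (plus rounding) in 100% of 2925 to 3966 values tested per library, which gave the read numbers stated and shows that the tables keep their depth.

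Of the transcripts, 77720 (97.7%) matched GENCODE M21, and the 1815 others held 2.64 to 3.24% of RPKM. Each of 26227 genes was represented by 1 transcript (a coding one first, by APPRIS status, CCDS membership and length). The 13004 genes that reached 1 RPKM in 2 or more libraries were fitted with limma 3.58.1 in R 4.3.3 on log2(RPKM + 1), with group as the only term, a mean-variance trend, a spread pooled over all 10 libraries (residual degrees of freedom 5, prior 3.04), 2-sided tests and BH adjustment over all genes. On simulated data with 200 changed genes among 13004 for 40 h against untreated, 41.2% of planted changes of 0.5 on the log2 scale were called. Those of 1 were called in 82.5% and those of 2 in 98.6%, and 5.46% of calls fell on unchanged genes. The simulation drew normal noise with 1 SD per gene in all groups and planted changes only in genes above 5 RPKM. The real groups differed in spread (median SD 0.0426 in untreated cells, 0.175 at 120 h), so these rates need not hold for the real fit. Promoter sequences are RefSeq's for GRCm38.p6.

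The comparison, the 37 gene lists and the rule for named genes were chosen with earlier results of these data known, so lists are described by counts and medians without a list test. The rule took Hoxa9, Meis1, Esr1, Lyz2 and Kit, then the 15 highest and 15 lowest fold changes of called genes whose higher group averaged 2 RPKM or more, leaving out predicted and clone names. It added per list up to 6 called members by size and up to 2 uncalled members by level, and the 5 most abundant called genes each way. The 5 called genes each way that were called oppositely in 120 h against 24 h, and list members called in opposite directions in neighbouring comparisons, completed the 181 named genes. Other genes in the text were named because they define a cell type, complete a list's calls or complete a small count. Alternatives were other pseudocounts, filters, scalings, transcripts, subsets of groups, array weights, a replicate block, limma voom on the recovered reads and each library left out in turn. The comparison of 72 h with 24 h, the fit without the 72 h and 120 h groups and the fits without single 24 h, 72 h or 120 h libraries were added after seeing the data. Some genes that the rule took are not reported here.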

Additional observations from a re-analysis of the deposited data

Results flagged for a closer look

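For 16 of the named genes the change at 40 h differed from the change at 24 h, by limma's test of 40 h against 24 h with BH adjustment over all genes. The higher genes at 40 h were Ly6c2, with a log2 difference of 2.76 between the 40 h and 24 h groups, n-R5-8s1 (2.16), Gda (1.84), Igsf6 (1.57), Mtus1 (1.55), Tlr4 (1.18), Clec12a (0.89), Adgre1 (0.89) and Slc22a4 (0.64). The lower genes were Fgf3 (-1.10), Myl4 (-0.91), Asic4 (-0.91), Crip1 (-0.85), Gfra1 (-0.81), Serpinf1 (-0.72) and Trf (-0.65). Clec12a, an inhibitory receptor of myeloid cells, differed from the others in its 24 h level: it read 8.42 and 8.24 RPKM in untreated cells, 6.94 and 6.54 RPKM at 24 h and 14.9 and 11.9 RPKM at 40 h.

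For Irf8 and Ccl3 the 40 h and 72 h groups lay on opposite sides of untreated cells, and the 72 h level was called above the 40 h level, by 0.70 for Irf8 and 2.52 for Ccl3 on the log2 scale. Irf8 read 13.6 and 12.6 RPKM in untreated cells, 9.52 and 8.51 RPKM at 40 h and 14.8 and 15.7 RPKM at 72 h. The Ccl3 levels at 24 h (6.41 and 6.38 RPKM) and 40 h (6.25 and 6.73 RPKM) overlapped.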

How the results depend on the processing

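Of the 557 calls at 40 h against untreated, none changed sign under any setting run. The genes called numbered 557 (121 higher, 436 lower) as reported, 2859 (1051 and 1808) with array weights, 1988 (729 and 1259) with only the 2 groups compared, 1797 (611 and 1186) without the 120 h group, and 2478 (897 and 1581) without the 72 h and 120 h groups. All 557 were called under each of these 4. With a pseudocount of 0.1, 279 genes were called lower, and 384 of the 557 were called. Leaving out each library in turn gave 41 to 1789 calls, 20 to 608 higher and 21 to 1181 lower. For 40 h against 24 h, with 37 calls, the count was 493 with array weights, 160 with only the 2 groups, 238 without the 120 h group, 368 without the 72 h and 120 h groups, 13 with limma voom, and 0 to 19 with a 24 h or 40 h library left out (at 0, limma gave 518 and 956 genes at an unadjusted p under 0.05). For 72 h against 40 h, with 3604 calls, it was 6082 without the 120 h group and 1977 to 2704 with a 40 h or 72 h library left out. For 120 h against 24 h, with 10507 calls, no setting moved the count by over 1.5 times.

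With the replicate block 693 genes were called (164 higher and 529 lower), and 545 of the 557 stayed called. The labels do not say that equal numbers share a culture or day. The correlation of replicate differences over genes was 0.0877 between untreated and 40 h cells and ranged from 0.0341 to 0.639 over the 10 group pairs, 8 of them over 0.1. Of the 557, 337 were called with no filter, 484 with median-of-ratios scaling, 429 with quantile normalization and 462 with limma voom. The median of all genes moved from -0.006 to -0.003 and 0.010 under the 2 scalings. Changes of sign between 2 uncalled values were not counted. In the simulation 41.2% of changes of 0.5 on the log2 scale were called. Detection in genes under 5 RPKM was not simulated.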

Other observations

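A few single genes outside the lists are given because their values were seen, and no count over their families was made (3.35% of all genes were called lower). Tap1, a chain of the peptide transporter of MHC class I, read 110 and 109 RPKM in untreated and 64.5 and 71.97 RPKM in 40 h cells (log2 fold change -0.67), and Psmb9, an immunoproteasome subunit that overlaps it, 117 and 117 RPKM against 69.4 and 73.1 RPKM (-0.71). The spans of this pair overlap on opposite strands, and reads in any bases they share cannot be told apart without strand. Psmb8 and Tap2, which each overlap the predicted gene Gm20496, were also among the called genes. The nonclassical class I gene H2-T23 read 21.4 and 21.9 RPKM against 10.8 and 11.02 RPKM (-0.92).

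Of 181 solute carrier genes 8 were called lower and 3 higher (21 and 16 without the 120 h group), with a median of 0.003. Those shares, 4.42% and 1.66%, are near the 3.35% and 0.93% of all genes, and with untreated replicate 1 or 2 left out no member was called. The falls included Slc22a3, an organic cation transporter, from 23.8 and 25.7 RPKM to 11.8 and 14.02 RPKM (log2 fold change -0.89), and Slc2a3, a glucose transporter, from 22.4 and 22.02 RPKM to 12.4 and 11.6 RPKM (-0.84). The rises were Slc7a11, Slc22a4 (1.00 and 0.982 RPKM against 2.79 and 2.25 RPKM) and the choline transporter Slc44a1 (0.59). In the clustered histone genes that follow, 6.98% were called lower. In the p53 target and apoptosis genes, 10.7% were called lower and 3.57% higher. Over all genes these shares were 3.35% lower and 0.93% higher. Of 43 clustered histone genes 3 were called lower, the H2B genes Hist1h2bc, Hist1h2bg and Hist2h2be (-0.85, -0.69 and -0.61), and without untreated replicate 1 or 2 or 40 h replicate 1 none was. Of 28 p53 target and apoptosis genes, Phlda3, Cdkn1a and Gadd45b fell (-0.73, -0.66 and -0.43) and Gadd45a was called higher (0.45), calls that were all lost in each fit that left out 1 of the 4 libraries.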
